A study of Mus musculus with 10 samples.

Results

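Serpinb2, Plaur, Plau and Plat encode the core of the plasminogen activation system, and their mRNAs were followed in mouse fibroblasts across 2 serum states and 3 RNA pools. A probe set was taken when the platform annotation gave it 1 symbol and that symbol was one of these genes. Each gene had 1 such probe set, so 4 of 12422 ordinary probe sets and 4 of 8251 named genes are described. All 4 lay above the filter on low levels and were tested.

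Plasminogen is a circulating proenzyme that plasminogen activators cut into plasmin, a protease that dissolves fibrin and cuts matrix proteins and latent growth factors. Plau encodes the urokinase-type activator and Plat the tissue-type activator. Plaur encodes the glycolipid-anchored receptor that holds urokinase at the cell surface. Serpinb2, also called plasminogen activator inhibitor type 2, is a serpin that inhibits urokinase and tissue-type activator, and much of it stays inside the cell. In fibroblasts the system is known for its part in migration, wound repair and matrix turnover.

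The cells were primary C57/BLACK6 mouse embryonic fibroblasts of age e14.5, all carrying 1 disrupted Atf1 copy (ATF1 +/-), so the starved controls carried it too. Starvation lasted 48 h in 1% dialysed fetal bovine serum. Serum-treated cultures then spent 2 h in medium with 10% serum, and starved controls spent the same time in medium with 1%. Cytoplasmic RNA came from cultures without cycloheximide, with 1 array per serum state. Polyribosome RNA (mRNA with 2 or more ribosomes) and undertranslated RNA (mRNA free of ribosomes or carrying a subunit or 1 ribosome) came from sucrose gradients, with 2 arrays per serum state and pool, after cycloheximide at 100 ug/ml for 30 min. Replicate 2 of each gradient group was labelled with 200 uM 4-thiouridine and 3H-cytidine, and replicate 1 was not. Equal gradient fractions from different cultures were combined before an array was made, so the p-values measure the spread between such combined samples, which may be technical in part. The labels do not give the number of embryos or lines.

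Affymetrix arrays gave 1 linear intensity per probe set. An array's background was set at the brightest of its 19 control probe sets for bacterial and yeast genes. The undertranslated arrays were dim, with median intensities of 5.7 to 8.8, against 45.3 to 54.2 for polyribosome and 19.1 to 19.2 for cytoplasmic RNA. The share of probe sets over background was 43.4% to 53.5% in undertranslated RNA and 56.3% to 73.5% in the other pools. All 12 measured fibroblast markers were above background on the cytoplasmic and polyribosome arrays, and Col1a1 and Pdgfra were on all 10 arrays. The 3′ to 5′ signal ratio of Gapdh, a sign of RNA quality, was 47.0 on the starved and 28.4 on the serum-treated cytoplasmic array. It was 6.11 to 20.9 on the polyribosome and 3.70 to 6.81 on the undertranslated arrays. That of Actb was 16.6 and 11.9 on the cytoplasmic arrays, against 11.5 to 21.1 on the polyribosome arrays. The part of RNA quality in the serum differences was not tested. Precision is limited by how few arrays there are.

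RefSeq promoter sequences (GRCm38.p6) were on hand for 2 of the 4 genes, Serpinb2 and Plaur. These are the genes whose levels moved with serum, so the 250 bases before the start are shown for both, 5′ to 3′ on the plus strand. Capitals mark matches to the AP-1 site TGACTCA, to its looser form TGANTCA or to the CRE-like site TGACNTCA, each searched on both strands. AP-1 is the Fos and Jun dimer, and CRE sites are bound by the CREB and ATF proteins. The Serpinb2 window lies at chr1:107511173-107511422 and precedes the first of 2 listed starts, and the Plaur window lies at chr7:24462233-24462482.
Serpinb2: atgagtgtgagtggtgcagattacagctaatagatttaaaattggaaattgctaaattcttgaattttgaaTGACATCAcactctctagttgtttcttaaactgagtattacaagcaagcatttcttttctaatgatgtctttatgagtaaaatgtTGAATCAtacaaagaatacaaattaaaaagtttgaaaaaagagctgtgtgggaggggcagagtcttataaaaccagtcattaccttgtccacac
Plaur: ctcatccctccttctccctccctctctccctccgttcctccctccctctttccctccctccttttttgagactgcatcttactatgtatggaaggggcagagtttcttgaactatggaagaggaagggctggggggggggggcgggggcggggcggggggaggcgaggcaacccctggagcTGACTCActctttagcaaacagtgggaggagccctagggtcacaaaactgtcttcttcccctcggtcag

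The Plaur window holds 1 TGACTCA, which begins 69 bases before the start. The Serpinb2 window holds no TGACTCA, 1 match to TGANTCA that begins 94 bases before the start and 1 match to TGACNTCA that begins 179 bases before it. Every TGACTCA is also a match to TGANTCA. Of 32851 promoter windows of this length, 4.46% hold TGACTCA, 6.75% hold TGANTCA and 7.49% hold TGACNTCA. A TATA box (TATAAA, both strands searched) begins 29 bases before the Serpinb2 start and is present in 12.4% of windows. The Plaur window has no TATAAA and holds 3 GC boxes (GGGCGG, either strand), a motif found in 32.7% of windows. Such matches describe the letters of the windows, and binding was not measured.

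Serum raised the mRNA of the inhibitor Serpinb2 and of the receptor Plaur, and neither activator passed the test. Deposited intensities of Serpinb2 were 14.1 in starved and 142.7 in serum-treated cytoplasmic RNA. In polyribosome RNA they were 45.8 and 43.1 on the starved arrays and 548.8 and 364.8 on the serum-treated arrays. In each of these pools the serum-treated intensities were higher than the starved ones. The ratio of serum-treated to starved intensity was 10.1 in cytoplasmic RNA, 12 in the unlabelled and 8.46 in the labelled polyribosome pair. The cytoplasmic rise was seen in cells that had received no cycloheximide.

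Plaur read 45.6 in starved and 228.7 in serum-treated cytoplasmic RNA. On the polyribosome arrays it read 93.7 and 137.9 in starved and 320.3 and 450.9 in serum-treated cells. The ratios of serum-treated to starved intensity were 5.02 in cytoplasmic RNA and 3.42 and 3.27 in the polyribosome pairs. The urokinase gene Plau was dim and stayed close to its starved level, at 18.4 and 16.7 in cytoplasmic RNA. In polyribosome RNA it read 40.0 and 28.3 in starved and 46.8 and 29.1 in serum-treated cells, and these groups overlapped. Plat was bright, at 488.4 in starved and 501.6 in serum-treated cytoplasmic RNA, with polyribosome values of 1334.9 and 1177.1 against 1468.5 and 1144.6. Its polyribosome groups overlapped too.

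**Figure D1:**
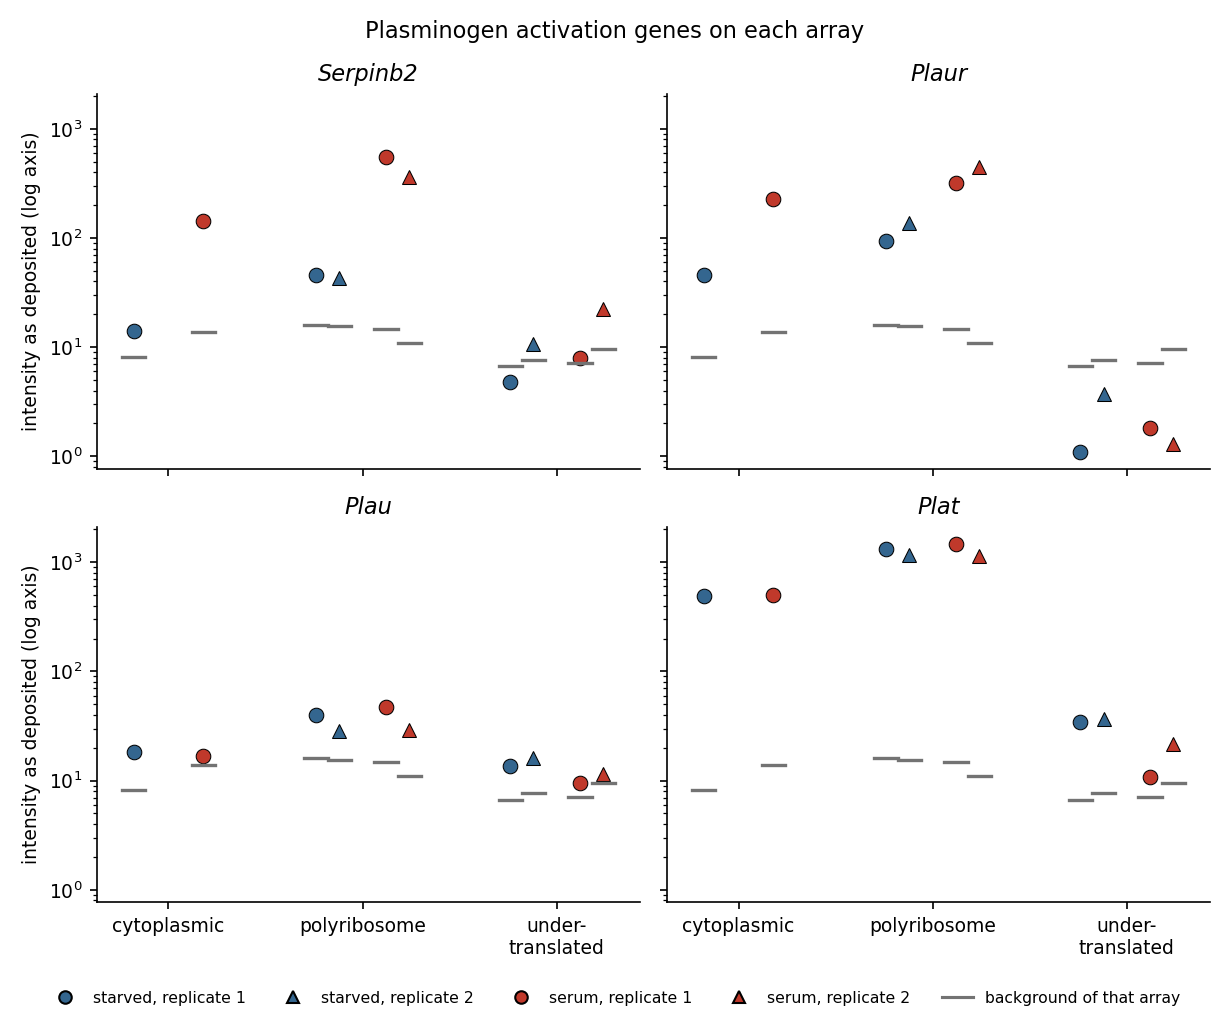
Deposited intensity (log axis) of each gene on each of the 10 arrays by RNA pool, with starved arrays in blue, serum-treated arrays in red, replicate 1 as circles, replicate 2 as triangles and a grey dash at the background of that array. Serpinb2 and Plaur are higher on the serum-treated arrays in cytoplasmic and polyribosome RNA, and Plaur is under background on all 4 undertranslated arrays.

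For tests, values were taken as log2(value + 1.5) and quantile normalized over all 10 arrays, a scale called scaled log2 here. A model over the 6 cytoplasmic and polyribosome arrays, with the RNA pool as a factor, set 3 serum-treated against 3 starved arrays. Serpinb2 was higher in serum-treated cells by 2.78 ± 0.19 log2 units (SE), or 6.89-fold (95% interval 5.13 to 9.25; limma adjusted p = 0.00104). Plaur was higher by 1.73 ± 0.25, or 3.32-fold (2.26 to 4.89; limma adjusted p = 0.0191). All 3 matched pairs rose for both genes. In this model 0.891% of the 9316 tested probe sets passed, 0.666% of them as rises and 0.225% as falls, and 2 of the 4 genes here were among the rises. Serpinb2 had the 2nd highest difference of all 9316 and Plaur the 20th. These rises were known when the genes were chosen, so their size describes the data.

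The activators did not pass in the same model. Plat differed by 0.16 ± 0.17 log2 units (limma adjusted p = 0.776), with a 95% interval of the fold from 0.856 to 1.46. Plau differed by 0.08 ± 0.23 (limma adjusted p = 0.935), with an interval of 0.738 to 1.50. A rise of the size seen for Plaur lies outside both intervals, while changes inside them cannot be told from none. Plau and Plat turned to -0.24 each when arrays were scaled on the hybridization controls, a setting under which all tested probe sets had a median of -0.39.

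The size of the Serpinb2 rise moved with the scaling. Median centring gave 10.1-fold and quantile normalization over the 6 arrays alone gave 10.3-fold, both close to the ratios of deposited intensities. Serpinb2 passed in every alternative of this model that was tested, with adjusted p-values up to 0.0476. Plaur lost its call without the starved cytoplasmic array (limma adjusted p = 0.204), the serum-treated cytoplasmic array (0.212), starved polyribosome replicate 1 (0.0841) or serum-treated polyribosome replicate 2 (0.0974), and likewise with no filter (0.0549) or no variance trend (0.0706), while its estimate stayed between 1.52 and 2.07 under every tested alternative. With the replicate number as a block, the model called 149 probe sets instead of 83, and both genes passed (limma adjusted p = 0.00243 for Serpinb2 and 0.00716 for Plaur).

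**Figure D2:**
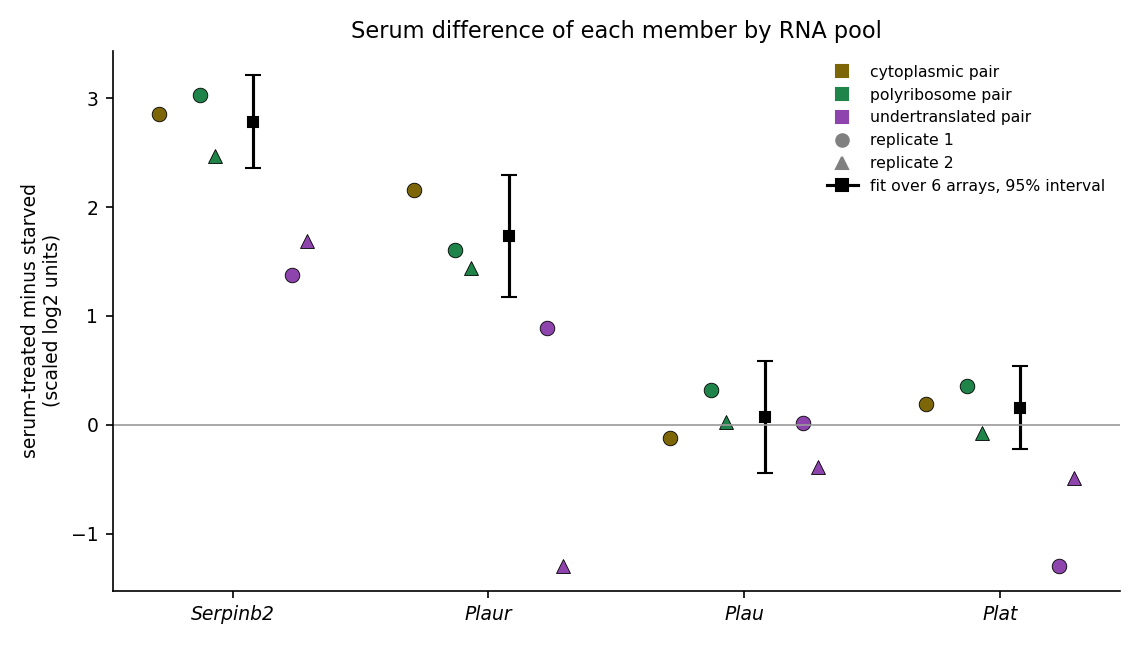
Serum-treated minus starved level in scaled log2 units for each gene, with 1 point per matched pair of arrays coloured by RNA pool (circles for replicate 1, triangles for replicate 2) and, in black, the estimate over the 6 cytoplasmic and polyribosome arrays with its 95% interval. Serpinb2 lies at 2.78 and Plaur at 1.73, and the intervals of Plau and Plat include 0.

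Within polyribosome RNA, the model over all 8 gradient arrays gave Serpinb2 a difference of 2.75 ± 0.57 log2 units (limma adjusted p = 0.581) and Plaur 1.52 ± 0.61 (adjusted p = 1). No probe set passed there (0% of 9316, 161 at an unadjusted p under 0.05). One spread serves both pools in that model, and the median SD between replicates was 0.34 and 0.56 log2 units in the undertranslated groups against 0.20 in both polyribosome groups. With the 4 polyribosome arrays fitted alone, Serpinb2 passed (limma adjusted p = 0.0370), as did 0.0537% of probe sets, and Plaur did not.

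In undertranslated RNA, Plat and Plau were above background on all 4 arrays, Serpinb2 on 3 and Plaur on none. Serpinb2 read 4.8 and 10.7 in starved and 7.9 and 22.5 in serum-treated cells, and these intensities overlapped. Its scaled levels, at 3.65 and 4.73 against 5.03 and 6.42, did not overlap. Its scaled difference was 1.53 ± 0.57 log2 units (limma adjusted p = 0.211), and both pairs lay above 0, at 1.38 and 1.69. Plaur read 1.1 and 3.7 in starved and 1.8 and 1.3 in serum-treated cells, always under background, so no fold can be given. Plau read 13.7 and 16.1 in starved and 9.5 and 11.4 in serum-treated cells, intensities that did not overlap. Its scaled levels overlapped, at 5.43 and 5.46 against 5.45 and 5.07, with a difference of -0.18 ± 0.43 (limma adjusted p = 0.837).

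Plat read 34.5 and 36.5 in starved and 10.9 and 21.7 in serum-treated undertranslated RNA. Its scaled difference was -0.89 ± 0.30 log2 units (limma adjusted p = 0.177), against 1.07% of probe sets called in this comparison (0.29% as rises and 0.784% as falls), a count that went from 100 to between 0 and 2302 when 1 array was left out. It passed only without serum-treated undertranslated replicate 2, at -1.18 (limma adjusted p = 0.0185). The serum-treated arrays of this pool were also dimmer over all probe sets, with a median ratio of 0.626 in the unlabelled and 0.803 in the labelled pair among probe sets above background on both arrays. Their 3′ to 5′ signal ratio for Actb, a sign of RNA quality, was 23.6 and 33.9 against 137 and 61.4 on the starved arrays. The part of either in the Plat and Plau values was not tested.

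**Figure D3:**
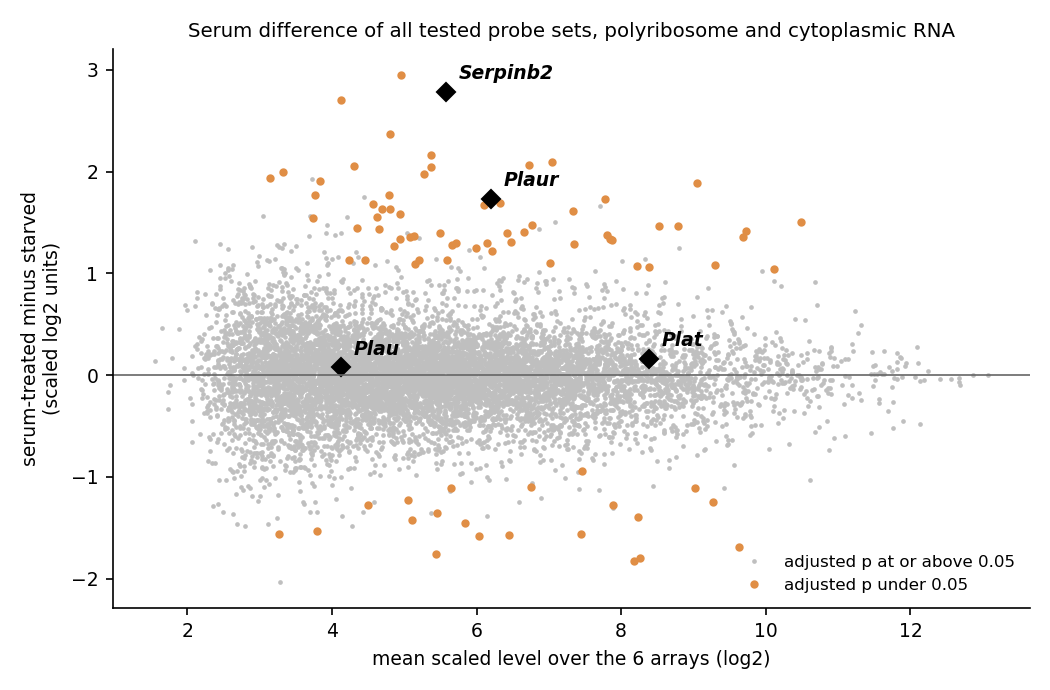
Serum-treated minus starved difference (scaled log2 units) against mean scaled level for the 9316 tested probe sets in the model over 6 arrays, with probe sets at an adjusted p under 0.05 in orange and the 4 genes as black diamonds. Serpinb2 and Plaur lie among the highest rises, and Plau and Plat lie near 0.

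The gradient also shows how the 4 mRNAs were spread between ribosome-rich and ribosome-poor RNA, which bears on how far each was translated. By the main scaling Plaur and Plat were placed toward polyribosomes, Plau toward undertranslated RNA and Serpinb2 between them. Averaged over both serum states, the scaled difference of polyribosome minus undertranslated RNA was 1.78 ± 0.21 log2 units for Plat (limma adjusted p = 0.000278). The 3′ to 5′ signal ratio of Actb was 11.5 to 21.1 on the polyribosome and 23.6 to 137 on the undertranslated arrays. That of Gapdh went the other way, at 6.11 to 20.9 and 3.70 to 6.81 in the same order. The part of RNA quality in these differences was not tested. Plaur was above background on 4 polyribosome and on no undertranslated array, so it was at least 2.99-fold higher in polyribosomes within this scaling. Its limma adjusted p of 0.00024 comes from the fit to the scaled levels, those under background included, and does not test that bound. Serpinb2 stood at 0.69 ± 0.40 (limma adjusted p = 0.181), with 4 polyribosome and 3 undertranslated arrays above background. It passed with each of the 3 other scalings and, at 1.03, without serum-treated undertranslated replicate 2.

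Plau was lower in polyribosomes by the main scaling, at -1.31 ± 0.31 log2 units (limma adjusted p = 0.00727), and higher with values as deposited, at 1.40, and with hybridization control scaling, at 1.71. In this comparison 54.2% of probe sets passed, 28.7% toward polyribosomes and 25.5% toward undertranslated RNA, so the 3 calls among 4 genes are to be read against that share. Plau and Plat were above background on all 8 gradient arrays. Of the 3781 tested probe sets like them in this, 2620 were called, with a median difference of -0.44. Only 32.8% of those calls were toward polyribosomes, so a call toward undertranslated RNA was the more usual one among them. The median of all probe sets moved from 0.05 in the main scaling to 0.54 with median centring, 3.00 as deposited and 3.31 with hybridization controls. The last 3 scalings shift all probe sets of an array alike, so relative to that median they give 1 value per gene, and quantile normalization gives another. Plat lay 1.74 log2 units above the median with quantile normalization and 2.67 with the others, Serpinb2 0.64 above it with both, and Plau at -1.35 and -1.60. Plaur has only its bound, since its undertranslated levels were under background. Plau was near background there, at 9.5 and 11.4 on the serum-treated arrays against backgrounds of 7.1 and 9.6. On the first of these arrays a reading of 7.9, that of Serpinb2, scaled to 5.03. The scaled polyribosome levels of Plau were lower, at 3.86 to 4.38. The part of this floor in the sign of the Plau difference was not tested.

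**Figure D4:**
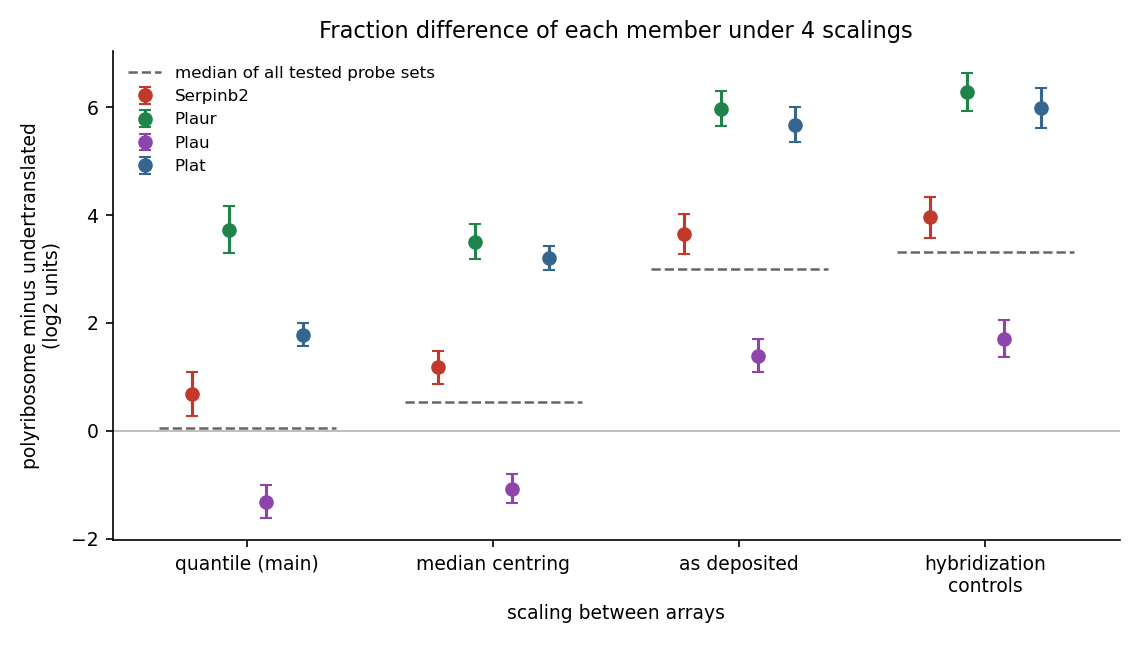
Polyribosome minus undertranslated level (log2 units, averaged over both serum states) of each gene under 4 scalings of the arrays, with bars for the SE and a dashed line at the median of all 9316 tested probe sets. Plat lies above that line and Plau below it in each scaling, Plaur is drawn from undertranslated levels under background, while the sign of Plau turns with the values as deposited and with the hybridization controls.

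Each serum state was then taken by itself. Plat stood at 1.27 ± 0.30 log2 units toward polyribosomes in starved (limma adjusted p = 0.0167) and at 2.30 ± 0.30 in serum-treated cells (adjusted p = 0.000964). Plaur was at least 2.17-fold higher in polyribosomes in starved and at least 4.12-fold higher in serum-treated cells. The limma adjusted p-values of 0.0105 and 0.000985 come from fits that include levels under background, and do not test these bounds. Serpinb2 was at 0.08 ± 0.57 in starved and 1.29 ± 0.57 in serum-treated cells, neither past the test (limma adjusted p = 0.936 and 0.0976). Plau was at -1.49 ± 0.43 in starved (limma adjusted p = 0.0344) and -1.13 ± 0.43 in serum-treated cells (adjusted p = 0.0633), with signs that hold for the main scaling. The share of probe sets called was 28.3% in starved cells, with 14.6% toward polyribosomes and 13.7% toward undertranslated RNA, and 43.9% in serum-treated cells, with 23.5% and 20.5%.

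The change of this split with serum did not pass for any of the genes. Shifts toward polyribosomes after serum were 1.72 ± 0.86 log2 units for Plaur, 1.22 ± 0.81 for Serpinb2, 1.03 ± 0.43 for Plat and 0.36 ± 0.61 for Plau, with limma adjusted p-values of 0.685, 0.736, 0.622 and 0.877. No probe set of the 9316 passed (0%, with 720 at an unadjusted p under 0.05 in limma). The 95% intervals ran from -0.24 to 3.69 for Plaur and from 0.06 to 2.01 for Plat, and the unadjusted p of Plat was 0.0405 in limma. The Plaur shift rests on undertranslated levels under background. Without serum-treated undertranslated replicate 2 the model called 902 probe sets, and none of the 4 genes passed, with limma adjusted p-values of 0.0524 for Plat and 0.104 for Serpinb2.

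Ordered by scaled level, the 6 groups fell differently for each gene. For Serpinb2 the serum-treated polyribosome and cytoplasmic groups were highest, at 7.02 ± 0.31 (SD, n = 2) and 6.88 (n = 1), and did not differ beyond that spread. Serum-treated undertranslated RNA followed at 5.72 ± 0.98, and the 3 starved groups lay at 4.03 to 4.27 with gaps under their spread. For Plaur the order was serum-treated cytoplasmic at 7.53, serum-treated polyribosome at 6.83 ± 0.34, then starved cytoplasmic and polyribosome at 5.38 and 5.30 ± 0.46, which did not differ beyond the spread. Plat had its cytoplasmic and polyribosome groups between 8.23 and 8.68 and its undertranslated groups at 6.96 ± 0.16 in starved and 6.07 ± 0.41 in serum-treated cells. Plau was highest in undertranslated RNA, at 5.45 ± 0.02 and 5.26 ± 0.27, and lay at 3.96 to 4.34 elsewhere, an order that belongs to this scaling.

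Labelling with 4-thiouridine did not move any of the genes past the test. The difference of labelled minus unlabelled gradient arrays was 0.54 ± 0.38 log2 units for Serpinb2, 0.39 ± 0.44 for Plaur, -0.27 ± 0.31 for Plau and 0.09 ± 0.21 for Plat, with limma adjusted p-values of 0.705 to 0.897. No probe set passed there (0%, with 602 at an unadjusted p under 0.05 in limma). Within unlabelled arrays alone the serum difference of Serpinb2 was larger than in the labelled polyribosome pair, at 12 against 8.46 as a ratio of intensities.

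Over all 10 arrays the levels most like those of Plat were those of the collagen chaperone Serpinh1 (Pearson r = 0.99), Slc12a4 (0.99) and Grn (0.99). Plau was most like Srp19, Spop and Pagr1a (r = 0.98 each), and Plaur was most like Xbp1, Ddr1 and Ehd1 (r = 0.97 each). Serpinb2 was nearest to the protease Capn2 (r = 0.93), to Sqle (0.93), an enzyme of cholesterol synthesis, and to Spsb1 (0.91). These correlations describe likeness across arrays that also share their pool and its brightness, and they carry no test. Over the 6 cytoplasmic and polyribosome arrays, the nearest genes were Acta1, Sqle and the growth factor Hbegf for Serpinb2 (r = 0.99, 0.98 and 0.98). Cmtm7, Map4k1 and the hyaluronan synthase Has1 were nearest to Plaur (r = 0.99 each). Hbegf and Has1 had serum differences of 1.61 ± 0.19 and 1.69 ± 0.22 log2 units, given as a description since they were picked for their likeness over the same arrays. Plau was nearest to Nppa, Ovgp1 and Zcrb1 (r = 0.99, 0.98 and 0.98) and Plat to Gpsm3, Diaph1 and Akap12 (r = 0.996, 0.991 and 0.984). Between the members themselves r over these 6 arrays was 0.91 for Serpinb2 with Plaur and 0.44 for Serpinb2 with Plat, and over all 10 arrays it was 0.48 and 0.19.

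The other genes of the system were taken from lists. Of 6 measured inhibitors of activators or plasmin other than Serpinb2, 3 were bright enough to be tested and none of these passed the serum test, with a median of -0.02 log2 units against -0.01 over all probe sets. They were Serpinf2, the main plasmin inhibitor, at -0.02 ± 0.19, the complement inhibitor Serping1 at 0.30 ± 0.20 and the neuronal serpin Serpini1 at -0.19 ± 0.20. Of 14 plasminogen binding, uptake and partner genes none passed, with a median of 0.17, or -0.12 with hybridization control scaling. They include the plasminogen-binding Anxa2 at 0.02 ± 0.15 and its partner S100a10 at 0.10 ± 0.16, and the uptake receptor Lrp1, which clears activator and inhibitor complexes, at 0.38 ± 0.20. Of 13 plasmin targets none passed, with a median of -0.02, among them the metalloproteinases Mmp13 at 0.78 ± 0.21 and Mmp3 at 0.27 ± 0.24. In the clade B serpin family of Serpinb2, the 2 other tested genes were Serpinb6a at 0.30 ± 0.18 and Serpinb9 at 0.23 ± 0.17, neither past the test.

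Over all probe sets 0.666% rose and 0.225% fell. Among 11 coagulation genes 1 rose, Fgl2, a prothrombinase-like protein, by 2.05 ± 0.21 log2 units (limma adjusted p = 0.00641), and none fell. The list's median was 0.06, or -0.33 with hybridization control scaling. Of 18 AP-1, Ets and related transcription factors 2 rose and none fell, with a median of 0.20, or -0.02 with hybridization control scaling. The risers were Cebpb by 1.37 ± 0.23 and the AP-1 subunit Fosl1 by 1.25 ± 0.20 (limma adjusted p = 0.0312 and 0.0292), and both lost the call with hybridization control scaling. Egr1 stood at -0.05 ± 0.29. Of 8 AU-rich element binding proteins, which bind unstable mRNAs, none passed, with a median of -0.11 and Zfp36 at 0.37 ± 0.27.

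Between the gradient fractions, the partner Anxa2 stood toward polyribosomes by 2.40 ± 0.12 log2 units (limma adjusted p = 9.88e-06), as did Lrpap1, a chaperone of Lrp1, by 2.57 ± 0.63 (its other probe set stood at 0.57 ± 0.56 and did not pass), and Lrp1 itself by 1.57 ± 0.29. Over all probe sets 28.7% stood toward polyribosomes and 25.5% toward undertranslated RNA, the shares against which the counts of each list are read. Altogether 4 of 14 partner genes stood toward polyribosomes and 2 toward undertranslated RNA, among them the urokinase receptor partner Mrc2 at -1.49 ± 0.32. All 3 inhibitors passed, Serping1 at 2.92 ± 0.64 and Serpini1 at 1.54 ± 0.37 toward polyribosomes and Serpinf2 at -1.16 ± 0.37. Of 13 plasmin targets 7 stood toward polyribosomes and 1 toward undertranslated RNA, fibronectin Fn1 at -1.92 ± 0.17. Those toward polyribosomes include Igfbp3 at 2.57 ± 0.34, Mmp3 at 2.14 ± 0.38 and Ltbp1 at 2.11 ± 0.57. Mmp3 was under background on the serum-treated undertranslated arrays, at 4.9 and 8.8, and on starved replicate 2, at 3.4. The size of its difference therefore rests on levels under background. Both clade B serpins stood toward polyribosomes, Serpinb9 at 2.82 ± 1.01 and Serpinb6a at 1.67 ± 0.30. Of 11 coagulation genes 2 passed each way, of 18 transcription factors 3 stood toward polyribosomes and 5 toward undertranslated RNA, and of 8 AU-rich element binding proteins 4 stood toward polyribosomes. Calls below 0 in this paragraph hold relative to the distribution of each array, and with values as deposited almost every probe set called, 99.5%, lies toward polyribosomes.

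Macrophages are rich in Serpinb2 and Plaur, and some macrophage markers also rose with serum in polyribosome and cytoplasmic RNA. Of 14 tested macrophage markers 5 rose with serum and none fell, against 0.666% and 0.225% of all probe sets, with a median of 0.96 log2 units, and 2 rose with hybridization control scaling. The risers were Ctss by 1.73 ± 0.17, Lyz2 by 1.67 ± 0.26, Tyrobp by 1.43 ± 0.25, Laptm5 by 1.41 ± 0.25 and Cd14 by 1.10 ± 0.18. The summed intensity of the 18 measured markers was 1586 to 1872 on the starved and 4618 to 5793 on the serum-treated polyribosome arrays, and 466.1 against 968 in cytoplasmic RNA. Tyrobp read 34.1 and 23.8 in starved and 108.6 and 142.2 in serum-treated polyribosome RNA. Csf1r, which defines the lineage, read 43.0 and 59.1 against 43.3 and 60.0 there with its brighter probe set, while the dimmer one rose by 1.27 ± 0.20 (limma adjusted p = 0.0254). On the undertranslated arrays the sum was 158.1 to 170.8 in starved and 146.9 to 287 in serum-treated cells. Between 14 and 16 of the 18 were above background on the polyribosome arrays, 11 on each cytoplasmic array and 6 to 10 on the undertranslated arrays. Tyrobp and Lyz2 were over background in undertranslated RNA only on serum-treated replicate 2, at 17.4 and 12.6, the array of that pool on which Serpinb2 was highest, while Csf1r, at 9, and Plaur, at 1.3, were under background there. Csf1r, Tyrobp and Lyz2 were at 0 on no array. In bulk RNA more cells of a type and more RNA per cell cannot be told apart, and the part of macrophages in the Serpinb2 and Plaur values was not tested. Fibroblast markers had none of 12 past the test and a median of 0.19. Endothelial markers had 1 of 6 (Flt1, higher by 1.77 ± 0.28, with its other probe set at 0.20 ± 0.24 and not past the test), and none with hybridization control scaling, and epithelial and muscle markers had none of 7 and none of 10, with medians of 0.44 and 0.35.

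**Figure D5:**
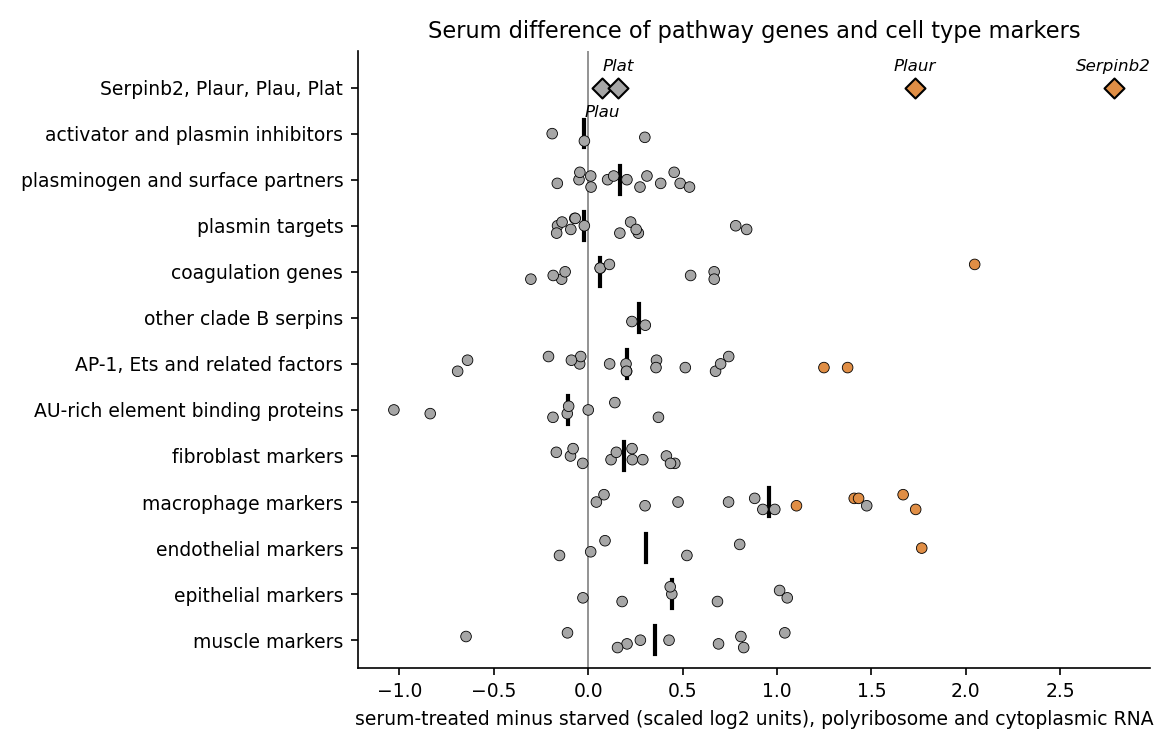
Serum-treated minus starved difference (scaled log2 units, model over 6 arrays) of the 4 genes as diamonds and of the genes of each pathway or marker list as circles, orange where the adjusted p is under 0.05, with a black bar at each list's median. Serpinb2 and Plaur lie at 2.78 and 1.73, and macrophage markers have the highest list median, 0.96.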

How the data were processed

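The authors deposited 1 linear intensity per probe set and array, for 12488 probe sets, 66 of them controls. RNA was reverse-transcribed, amplified and biotin-labelled, per the labels' protocols. How probes were summarised and scaled is not given in the sources used here. Gene names came from the platform annotation. Of 12422 ordinary probe sets 10833 had 1 symbol, 396 several and 1193 none. The Serpinb2 probe set has an _s_at name, which marks probes that can match more than 1 transcript.

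Deposited intensities plus 1.5 (their 10th percentile) were log2 transformed and quantile normalized over the 10 arrays. Only the 9316 probe sets whose mean level exceeded the 25th percentile were tested. limma 3.58.1 in R 4.3.3 (lmFit, eBayes with trend) was used, two-sided, with Benjamini-Hochberg adjustment at 0.05 over all tested probe sets. A fold is given as a bound where every array of 1 group lay under background. The brighter group's mean was then set against the other's arrays, each raised to its lowest level over background unless the probe set already exceeded that. The fits were tested on simulated data. The members and lists were chosen with earlier results of these data known. Named genes were the members, the 3 most correlated genes over each array set, up to 4 called genes per list and comparison in order of size, and 10 fixed genes. Called markers, neighbouring genes and other genes below the threshold were named after their values were seen.

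All gradient arrays numbered 2 came from 4-thiouridine cultures, so pairing by number is pairing by labelling. After group means were taken off, same-numbered arrays correlated at 0.275 for the polyribosome groups and 0.0171 to 0.0535 for other groups.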

Additional observations from a re-analysis of the deposited data

Results flagged for a closer look

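The serum difference of Plat lay above 0 in the cytoplasmic pair, at 0.20 scaled log2 units, and below 0 in both undertranslated pairs, at a mean of -0.89. That of Plau was -0.12 in the cytoplasmic pair and above 0 in both polyribosome pairs, at a mean of 0.17. Both were singled out because every pair of one pool lay on the other side of 0 from every pair of the other. These differences between pools were not tested, and they rest on 1 pair against 2 pairs of arrays.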

How the results depend on the processing

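Of 446 alternative values for the 4 genes, 409 counted as unchanged. For tested values this means the same direction and the same side of the threshold. Values of the cytoplasmic pair and of labelled or unlabelled arrays alone have no test. There it means a distance from the main value within the SD between replicates or pairs. Hybridization control scaling turned the serum response in polyribosome and cytoplasmic RNA to -0.24 for Plau and for Plat, and that in polyribosome RNA to -0.21 for Plau and -0.29 for Plat. Plaur lost its call in the first of these with no filter or no variance trend, at an unchanged 1.73. Serpinb2 in polyribosome RNA gained a call with median centring (3.39), with the 4 polyribosome arrays alone (2.75) and with these also scaled alone (3.41). For polyribosome against undertranslated RNA, Serpinb2 gained a call in deposited values (3.65), under median centring (1.18) and on the hybridization controls (3.96), and Plau turned to 1.40 as deposited and 1.71 with hybridization controls. In the cytoplasmic pair Serpinb2 moved to 3.21 as deposited and 3.20 with median centring, and Plat to 0.038 and 0.031 in the same order and -0.13 with hybridization controls. In labelled arrays alone the serum difference was 2.47 for Serpinb2 and -0.074 for Plat. The cause of these changes was not tested.

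Leaving out 1 array at a time gave 1.52 to 1.98 for Plaur and -0.10 to 0.19 for Plau in polyribosome and cytoplasmic RNA, where the number of called probe sets went from 83 to between 5 and 118. It gave -0.079 to 0.42 for Plau in polyribosome RNA. In undertranslated RNA the ranges were -0.85 to 0.45 for Plaur, which was under background on every array there and so has no measured difference, -0.37 to 0.0033 for Plau and -1.18 to -0.60 for Plat. They were 0.34 to 1.03 for Serpinb2 in polyribosome against undertranslated RNA and -0.073 to 0.20 for Plat in labelled against unlabelled cultures. The replicate block changed no call of the 4 genes in the planned fits. With the 4 polyribosome arrays alone and the replicate block, on 1 residual degree of freedom, Serpinb2 (2.75) and Plaur (1.52) gained a call. The called probe sets in the 6-array model numbered 24 with no filter and 19 with no variance trend, and the share of rises was 74.7%, against 63% as deposited and 30.2% with hybridization controls. In undertranslated RNA, 100 called probe sets became 22 as deposited, 20 with hybridization controls, 52 with the replicate block and 0 with the 4 arrays alone. Between the fractions 5052 became 8471 as deposited and 8790 with hybridization controls. Scaling over the 6 or 4 arrays alone, the 4-array block fit and the restriction to probe sets above background were chosen after seeing the data. Dim signal limits every value in undertranslated RNA.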

Other observations

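Genes beside the members in the reference gene order (GRCm38.p6, 3 protein-coding genes on each side) were looked at for the same serum response. None of the 6 neighbours of Serpinb2, of which 5 are clade B serpins, was tested on these arrays. The potassium channel gene Kcnn4 near Plaur stood at 0.77 scaled log2 units (limma adjusted p = 0.159). Near Plau, the vinculin gene Vcl stood at 0.25, Ndst2 at 0.32, Ap3m1 at -0.26 and Adk at -0.28, and near Plat, Polb stood at -0.12, Ikbkb at -0.15 and Ank1 at 0.45, none of them past the test.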
